A study of Mus musculus with 4 samples.

Results

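Messenger RNA levels of 42 listed genes of DNA replication and mitosis were described in mouse dorsal skin, in which bitransgenic animals overexpressing deltaNp63alpha were set against wild type animals. deltaNp63alpha is the p63 isoform without the amino-terminal transactivation domain and with the alpha tail, and it is the main p63 protein of basal keratinocytes. Skin was labelled p16, read as postnatal day 16, and each genotype was represented by 2 single-colour Affymetrix Mouse 430 2.0 arrays (n = 2 per group throughout), labelled as biological replicates. The list was drawn up with earlier results of these data known, and its genes were matched by symbol in the platform annotation. Shares of all genes are given beside the list as a description, not as a test of it. Of the 42, 41 had at least 1 probe set under their symbol, together 93 of the 45037 probe sets that were not controls. Cyclin B1 (Ccnb1) had no probe set under its symbol in the annotation used here and was not analysed. The list holds 18 genes of the replication phase and 24 of mitosis, of which 18 and 23 were measured; cyclin A2, which acts in both phases, was placed with mitosis. The labels state neither the strain, sex and litter of the animals nor the promoter and any inducer of the transgene, and so not the cell type in which it was switched on.

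Cells that commit to division switch on replication genes through E2F transcription factors, load and fire the MCM helicase at origins, and supply nucleotides for the new strands. Genes for chromosome condensation, the spindle and its checkpoint follow later in the cycle, under the DREAM and MuvB complexes and FOXM1, through a promoter element called the cell cycle genes homology region (CHR) and nearby CCAAT boxes. In skin, the dividing cells are chiefly basal keratinocytes of the epidermis and matrix cells of the growing hair bulb. In whole skin, a larger number of dividing cells and more messenger RNA per cell cannot be told apart.

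Promoters are shown first, because the genes of the 2 phases carried different known elements. They are those of the 3 genes of each phase with the smallest p among genes with a RefSeq window that held a searched element. Sequences are those of RefSeq, build GRCm38.p6, from 250 bases before to 50 bases after the annotated start, written 5′ to 3′ on the gene's strand. Capitals mark matches, on either strand, to an E2F site (TTTCCCGC, TTTGGCGC, TTTCGCGC or TTTGCCGC), to the CHR (TTTGAA) or to the CCAAT box (CCAAT, which reads ATTGG on the other strand); matches to different elements may overlap, as in Mcm7 and Cdca8. Mcm7 lies at chr5:138171834-138172133 (minus strand), Mcm3 at chr1:20820263-20820562 (minus strand) and Rrm2 at chr12:24708004-24708303 (plus strand). The mitosis genes lie at chr4:124936868-124937167 (Cdca8, minus strand), chr13:51644982-51645281 (Cks2, plus strand) and chr2:118597961-118598260 (Bub1b, plus strand). Of the 2 annotated Mcm7 starts, the one with more matches is shown.
Mcm7: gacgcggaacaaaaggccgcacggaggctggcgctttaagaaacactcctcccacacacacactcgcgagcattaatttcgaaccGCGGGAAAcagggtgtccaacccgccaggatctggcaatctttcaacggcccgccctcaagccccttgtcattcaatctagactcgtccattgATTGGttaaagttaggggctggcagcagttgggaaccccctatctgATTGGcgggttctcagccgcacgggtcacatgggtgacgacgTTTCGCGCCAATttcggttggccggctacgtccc
Mcm3: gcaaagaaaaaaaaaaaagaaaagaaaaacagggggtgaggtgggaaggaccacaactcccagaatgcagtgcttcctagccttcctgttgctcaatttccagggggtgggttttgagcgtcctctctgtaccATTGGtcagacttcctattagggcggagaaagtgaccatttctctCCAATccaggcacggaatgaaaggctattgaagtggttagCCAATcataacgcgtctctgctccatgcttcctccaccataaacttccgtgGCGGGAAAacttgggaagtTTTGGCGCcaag
Rrm2: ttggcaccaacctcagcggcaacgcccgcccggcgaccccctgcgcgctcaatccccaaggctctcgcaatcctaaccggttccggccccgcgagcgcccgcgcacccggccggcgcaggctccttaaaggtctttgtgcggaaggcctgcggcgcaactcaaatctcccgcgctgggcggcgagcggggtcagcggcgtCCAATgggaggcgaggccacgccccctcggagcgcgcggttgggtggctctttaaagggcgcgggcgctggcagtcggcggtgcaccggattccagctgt
Cdca8: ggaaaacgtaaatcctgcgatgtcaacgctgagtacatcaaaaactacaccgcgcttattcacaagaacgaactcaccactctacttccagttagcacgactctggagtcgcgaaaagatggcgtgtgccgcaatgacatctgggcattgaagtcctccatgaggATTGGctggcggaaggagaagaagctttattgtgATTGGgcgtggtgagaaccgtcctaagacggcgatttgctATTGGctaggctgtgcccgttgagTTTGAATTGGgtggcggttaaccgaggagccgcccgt
Cks2: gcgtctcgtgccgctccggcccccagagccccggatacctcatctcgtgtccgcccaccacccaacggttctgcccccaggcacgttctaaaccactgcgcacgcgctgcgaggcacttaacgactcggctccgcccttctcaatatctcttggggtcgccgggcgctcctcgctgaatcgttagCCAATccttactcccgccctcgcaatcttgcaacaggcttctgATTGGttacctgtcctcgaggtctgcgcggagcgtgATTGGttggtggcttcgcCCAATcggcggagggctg
Bub1b: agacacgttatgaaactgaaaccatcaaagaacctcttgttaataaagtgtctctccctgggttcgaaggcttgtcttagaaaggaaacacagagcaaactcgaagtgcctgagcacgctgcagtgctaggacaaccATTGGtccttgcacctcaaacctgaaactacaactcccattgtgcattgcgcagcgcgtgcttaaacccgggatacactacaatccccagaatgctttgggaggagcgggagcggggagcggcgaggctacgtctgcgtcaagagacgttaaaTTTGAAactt
The Mcm7 window held 2 E2F matches and 3 CCAAT boxes. The Mcm3 window held 2 E2F matches, 19 and 38 bases after the start, and 3 CCAAT boxes, while Rrm2 held a single CCAAT box 50 bases before the start. Cdca8 held 4 CCAAT boxes and a CHR 13 bases after the start, Bub1b held 1 CCAAT box and a CHR 40 bases after the start, and Cks2 held 4 CCAAT boxes. Promoters were found for 36 of the 42 genes, 39 windows in all. An E2F match was present in 7 of 18 replication windows (38.9%) and in 1 of 21 mitosis windows (4.76%, Cdk1), against 2.26% of 32851 mouse promoter windows of the same length. A CHR match was present in 2 replication windows (11.1%) and 15 mitosis windows (71.4%), against 17.9% of all windows. Every mitosis window with a CHR match also held a CCAAT box, a pair found in 6.95% of all windows. A CCAAT box, with or without another element, was present in 72.2% of replication and 85.7% of mitosis windows, against 37.4% of all. A match describes the letters in the window and does not show that a factor was bound.

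The deposited signals had the same 2% trimmed mean on every array, so each value is relative to the rest of its array, and levels of different probe sets are not comparable with each other. Median signals lay between 97.9 and 113.1. Of the 4 probe sets of Trp63, the gene of the transgene, 1 pair was high in both bitransgenic arrays (10325 and 15247 for the brighter) and lower in both wild type arrays (206 and 838), and the other pair overlapped between groups. Both replicate 1 arrays had the higher Bacillus spike-in signal (1797 in bitransgenic and 1718 in wild type, against 521 and 367 in the replicate 2 arrays), so genotype differences are also given within each replicate number. Y-linked Eif2s3y was high in bitransgenic replicate 2 and wild type replicate 1 only, so each genotype held 1 array of each kind.

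All 41 measured genes had a higher mean in bitransgenic than in wild type skin, and none passed the test over all genes. The values are log2(signal + 16), compared with limma over 13070 genes with Benjamini-Hochberg adjustment and a threshold of 0.05; each gene was represented by its brightest probe set. Limma called 0.75% of all genes higher and 1.58% lower in bitransgenic skin. At an unadjusted p under 0.05, 14 of the 41 were higher and 0 lower, against 6.91% and 9.76% of all genes. The lowest adjusted p was 0.109, and the 95% interval of each of the 41 genes held differences both below and above 2-fold. The median log2 difference, bitransgenic minus wild type, was 0.98 over the 41 genes (1.97-fold), and 0.0053 over all genes tested, with 17 of the 41 at 2-fold or more, against 4.56% of all genes. It was 0.84 for the replication genes and 0.99 for the mitosis genes.

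**Figure D1:**
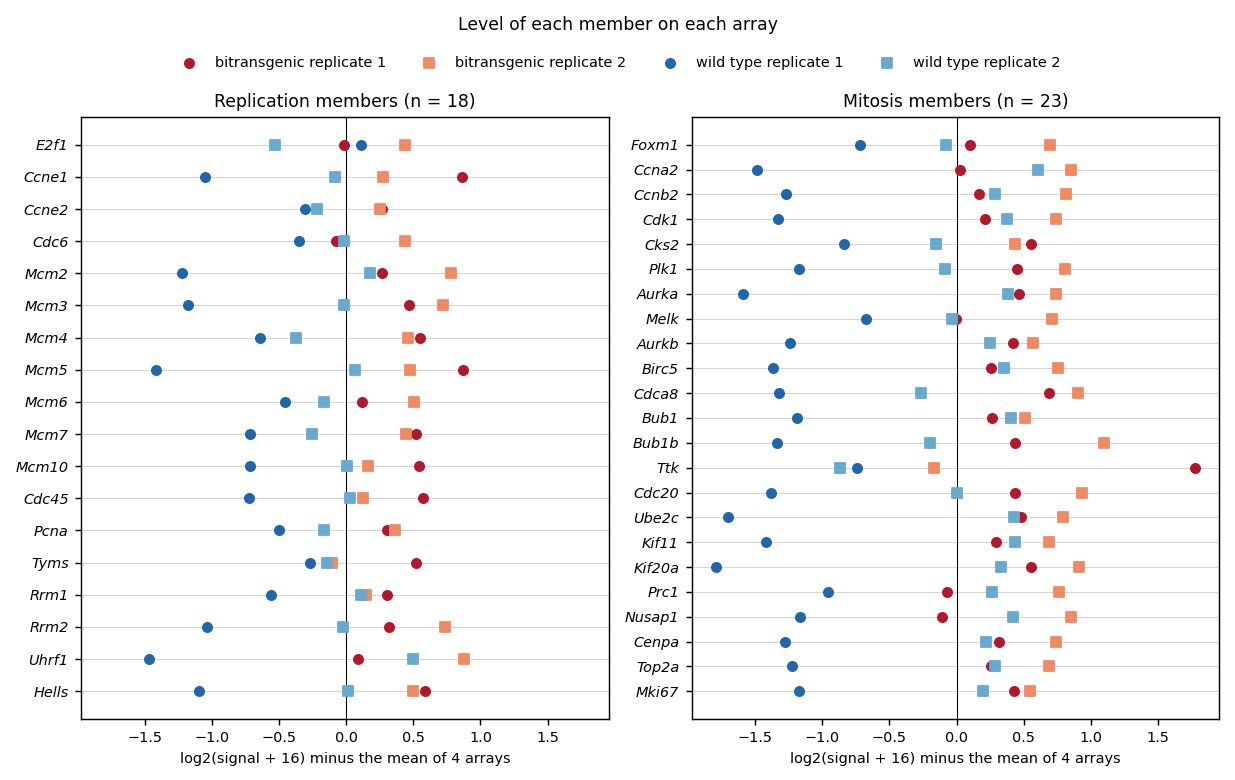
Level of each of the 18 replication genes (left) and 23 mitosis genes (right) on each array, as log2(signal + 16) minus the gene's mean over the 4 arrays; circles are replicate 1 and squares replicate 2. Wild type replicate 1 was the lowest array for 39 of the 41 genes. Among the 41, bitransgenic replicate 1 lay furthest above bitransgenic replicate 2 for Ttk.

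The 4 arrays did not form 2 tight pairs. Wild type replicate 1 was the lowest array for 39 of 41 genes, against 29.4% of all genes tested. In the median over the genes, values relative to the 4-array mean were 0.32 and 0.69 in bitransgenic replicates 1 and 2, and -1.17 and 0.01 in wild type replicates 1 and 2. Wild type replicate 2 thus lay nearer to the bitransgenic arrays than to the other wild type array. Within replicate 1 the median difference between genotypes was 1.49, with 40 of 41 genes higher in bitransgenic skin. Within replicate 2 it was 0.49, with all 41 higher. Arrays of the same number differed in Y-linked signal. For arrays alike in it, bitransgenic replicate 1 minus wild type replicate 2 had a median of 0.23. There 30 of 41 genes were higher (73.2%, against 48% of all genes). Bitransgenic replicate 2 minus wild type replicate 1 had a median of 1.77, with all 41 higher. Left out in turn, the wild type arrays decided the size of the difference. Without wild type replicate 1 the median was 0.35, 37 of the 41 genes had a higher mean and 0 were called, against 1.32% of all genes. Without wild type replicate 2 the median was 1.64 and limma called 25 of the 41 genes higher, 7 of the 18 replication genes and 18 of the 23 mitosis genes, against 2.4% of all genes. In each such fit the lone array of a genotype was assumed to vary like the other genotype. Without bitransgenic replicate 1 the median was 1.11 with 0 genes called, against 0.168% of all genes, and without bitransgenic replicate 2 it was 0.84 with 1 called, Ttk, against 0.23% of all genes.

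The order of the 4 arrays was not the same for replication and mitosis genes. Both bitransgenic arrays lay above both wild type arrays for 15 of 18 replication genes (83.3%) and 14 of 23 mitosis genes (60.9%), against 23.9% of all genes tested. Bitransgenic replicate 1 was the highest array for 10 replication genes and 2 mitosis genes, and bitransgenic replicate 2 for 8 and 21. For 9 mitosis genes and 2 replication genes, wild type replicate 2 lay between the 2 bitransgenic arrays with wild type replicate 1 lowest, an order held by 6.34% of all genes. The median of bitransgenic replicate 1 minus wild type replicate 2 was 0.50 for replication and 0.081 for mitosis genes. The difference between the 2 sets of genes has no test, since genes of a set are not independent samples.

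Among the genes that open the replication phase, the cyclins that drive entry into S phase were higher on both bitransgenic arrays, and for E2f1 this held on 1 of 2 kept probe sets. E2f1, a transcription factor that switches on replication genes, had signals on its brightest probe set of 180.3 and 254 in bitransgenic replicates 1 and 2, against 199 and 122 in wild type replicates 1 and 2 (log2 difference 0.42 ± 0.39, where ± gives the SE from limma). The groups overlapped there, with the lowest signal in wild type replicate 2. Its other kept probe set read 154 and 176 in bitransgenic and 85 and 80.2 in wild type skin, without overlap. Ccne1, cyclin E1, the partner of CDK2 at the start of S phase, read 655 and 431 in bitransgenic and 163 and 334 in wild type skin (1.13 ± 0.43, adjusted p = 0.256). For Ccne2, cyclin E2, the signals were 317 and 313 in bitransgenic and 208 and 221 in wild type skin (0.52 ± 0.31). The 2 wild type arrays were close for Ccne2 and well apart for Ccne1, and neither gene overlapped between groups.

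The subunits of the MCM2-7 complex, the ring helicase that unwinds DNA at the fork, all lay higher on both bitransgenic arrays than on either wild type array on their brightest probe sets. Mcm4 had signals of 1605 and 1507 in bitransgenic and 693 and 836 in wild type skin, a 2.02-fold difference (1.02 ± 0.25, 95% interval 0.41 to 1.62, adjusted p = 0.109), and Mcm7 had 4763 and 4527 in bitransgenic and 2012 and 2769 in wild type skin (0.97 ± 0.25, 95% interval 0.36 to 1.58, adjusted p = 0.122). On both of these probe sets the wild type arrays differed by less than the genotypes. For Mcm7 this did not hold on every kept probe set. A dimmer Mcm7 probe set read 2069 and 2714 in bitransgenic and 815 and 1845 in wild type skin (log2 difference 0.94). Another read 1357 and 1772 in bitransgenic and 539 and 1311 in wild type skin (0.87). There the wild type arrays differed by more than the genotypes. On the remaining kept probe sets of Mcm7 and Mcm4 they differed by less. Mcm5 read 2986 and 2259 in bitransgenic against 598 and 1704 in wild type skin (1.35 ± 0.49), Mcm3 read 1242 and 1486 in bitransgenic and 387 and 884 in wild type skin (1.19 ± 0.41) and Mcm2 read 650.2 and 933 in bitransgenic and 221 and 609.8 in wild type skin (1.05 ± 0.49). For these 3 subunits wild type replicate 2 was more than 2-fold above wild type replicate 1 on the brightest probe set. For Mcm2 it came within 0.09 on the log2 scale of bitransgenic replicate 1 there. The other kept Mcm2 probe set read 618.5 and 678 in bitransgenic and 350 and 414.5 in wild type skin. It did not overlap, and its wild type arrays were less than 2-fold apart. On the brightest probe sets Mcm6 had the smallest difference of the 6, with 2016 and 2639 in bitransgenic and 1348 and 1656 in wild type skin (0.62 ± 0.26). Its values within replicates 1 and 2 were 0.57 and 0.67. The other kept Mcm6 probe set gave 0.74, above the lowest value of a kept Mcm7 probe set (0.68).

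Of the listed genes that load and activate the helicase, Cdc6, Mcm10 and Cdc45 had log2 differences from 0.36 to 0.71 on their brightest probe sets. Cdc6, which helps to load the MCM ring onto origins, read 154 and 228 in bitransgenic and 125 and 162 in wild type skin (0.36 ± 0.37), with overlap. Mcm10, which joins the helicase as it starts, read 259.9 and 196 in bitransgenic and 99 and 174 in wild type skin (0.71 ± 0.40), and Cdc45, a partner of the ring in the active helicase, read 329.5 and 237 in bitransgenic and 125 and 221 in wild type skin (0.69 ± 0.40). In Mcm10 and Cdc45 bitransgenic replicate 1 was high, and bitransgenic replicate 2 exceeded wild type replicate 2 by only 0.16 and 0.097 on the log2 scale. The other kept Cdc45 probe set overlapped, with 36.6 and 115 in bitransgenic and 63.3 and 48.2 in wild type skin (log2 difference 0.22).

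Pcna, the sliding clamp that holds polymerases on DNA and the gene with the narrowest SE of the 41, read 10956 and 11375 in bitransgenic and 6239.5 and 7885 in wild type skin (0.67 ± 0.24, 95% interval 0.10 to 1.24, adjusted p = 0.228). The groups did not overlap, and the means differed 1.59-fold. Of the subunits of ribonucleotide reductase, which makes deoxynucleotides, Rrm2 read 2998 and 4008 in bitransgenic and 1161 and 2353 in wild type skin (1.06 ± 0.38) and Rrm1 read 1845 and 1652 in bitransgenic and 1005 and 1616 in wild type skin (0.45 ± 0.30). Rrm2, the subunit whose level follows the cell cycle, thus had the larger value, and in Rrm1 bitransgenic replicate 2 and wild type replicate 2 differed by 0.031. Tyms, thymidylate synthase, was dim on its brightest probe set with a single symbol, at 132 and 79.9 in bitransgenic and 69.9 and 77.5 in wild type skin (0.41 ± 0.39).

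The 2 genes that help to copy DNA methylation were more than 2-fold higher in wild type replicate 2 than in wild type replicate 1. Hells, a chromatin remodeller needed for DNA methylation, read 887 and 836 in bitransgenic and 265 and 591 in wild type skin (1.09 ± 0.41, adjusted p = 0.252), without overlap. Uhrf1, which brings the maintenance methyltransferase to newly copied DNA, read 535 and 937 in bitransgenic and 171 and 717 in wild type skin (0.97 ± 0.65). Wild type replicate 2 lay above bitransgenic replicate 1 in Uhrf1, and without wild type replicate 1 its log2 difference was -0.017.

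**Figure D2:**
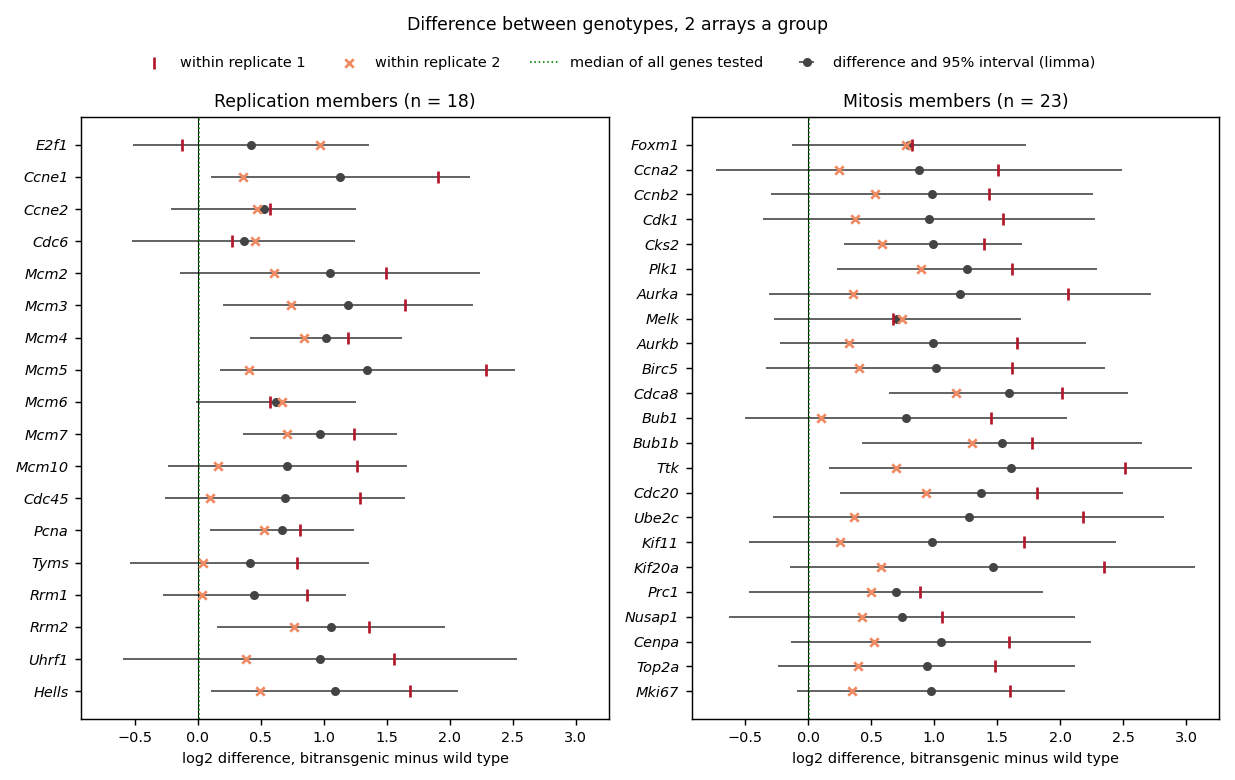
Log2 difference, bitransgenic minus wild type, of each replication gene (left) and mitosis gene (right), with the 95% interval of limma's fit (2 arrays a group) and the difference within replicate 1 and within replicate 2. All 41 points lie above 0, and 14 intervals exclude 0 before adjustment, 8 for replication and 6 for mitosis genes.

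In mitosis, the cyclin and CDK genes that trigger entry overlapped between groups, while Cks2, and Foxm1 on its brightest probe set alone, did not. Cdk1, the kinase that drives cells into mitosis, read 1591 and 2304 in bitransgenic and 536 and 1779.5 in wild type skin (0.96 ± 0.55). Its partner cyclins read 1036 and 1638 in bitransgenic and 374 and 1131 in wild type skin for Ccnb2 (0.98 ± 0.53) and 983 and 1751 in bitransgenic and 335 and 1474 in wild type skin for Ccna2 (0.88 ± 0.67). In all 3 genes wild type replicate 2 lay above bitransgenic replicate 1 and below bitransgenic replicate 2. Cks2, a small subunit that binds CDKs, read 3822 and 3514 in bitransgenic and 1442 and 2336 in wild type skin (0.99 ± 0.29, 95% interval 0.28 to 1.70, adjusted p = 0.157), with the narrowest SE of the mitosis genes. Foxm1, the transcription factor of the late cell cycle, read 301 and 462 in bitransgenic and 164 and 263 in wild type skin (0.80 ± 0.39), and that difference was 0.82 within replicate 1 and 0.78 within replicate 2. On both other kept Foxm1 probe sets wild type replicate 2 lay above bitransgenic replicate 1.

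The kinases Plk1, Aurka and Melk lay higher on both bitransgenic arrays than on either wild type array. Plk1, which acts at centrosomes, kinetochores and in cytokinesis, read 502 and 649.7 in bitransgenic and 153 and 342 in wild type skin (1.26 ± 0.43, adjusted p = 0.211). Aurka, the aurora kinase of the spindle poles, read 423 and 514 in bitransgenic and 89.4 and 399 in wild type skin (1.21 ± 0.63), and Melk, a kinase abundant in dividing progenitors, read 239 and 401 in bitransgenic and 144 and 234 in wild type skin (0.71 ± 0.41). For Aurka and Melk the higher wild type array came within 0.081 and 0.031 of the lower bitransgenic array on the log2 scale.

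The chromosomal passenger complex, which corrects spindle attachments and guides cytokinesis, held the mitosis gene with the smallest p. Cdca8, which encodes borealin, read 1162 and 1349 in bitransgenic and 276 and 591 in wild type skin, a 3.01-fold difference (1.59 ± 0.39, 95% interval 0.64 to 2.54, adjusted p = 0.109). It was higher by 2.01 within replicate 1 and 1.17 within replicate 2. Birc5, survivin, read 834 and 1189.8 in bitransgenic and 261 and 895 in wild type skin (1.01 ± 0.56) and the kinase Aurkb read 493 and 548 in bitransgenic and 145 and 436 in wild type skin (0.99 ± 0.51). Birc5 overlapped between groups, and Aurkb did not on its brightest probe set. On the other kept Aurkb probe set wild type replicate 2 (405) lay above bitransgenic replicate 1 (241). In Birc5 and Aurkb wild type replicate 2 lay 1.72 and 1.49 above wild type replicate 1 on the log2 scale.

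The 3 genes of the spindle checkpoint, which holds back anaphase until chromosomes are attached, differed in how the arrays were ordered. Bub1b, which encodes BUBR1, read 583 and 932 in bitransgenic and 159 and 369.6 in wild type skin (1.54 ± 0.46, 95% interval 0.43 to 2.65, adjusted p = 0.16), with no overlap. Bub1, a kinetochore kinase, read 471 and 562 in bitransgenic and 162 and 521 in wild type skin (0.78 ± 0.53), and wild type replicate 2 lay between the bitransgenic arrays. Ttk, the checkpoint kinase MPS1, read 2719 and 692 in bitransgenic and 462 and 421 in wild type skin (1.61 ± 0.60, adjusted p = 0.249). Its level in bitransgenic replicate 1 was 3.93-fold that of bitransgenic replicate 2, the widest gap within bitransgenic skin among the 41 genes, and the 2 wild type arrays were nearly equal. A dimmer Ttk probe set had the same high array, with 213 and 86.9 in bitransgenic and 98.5 and 39.2 in wild type skin. Without bitransgenic replicate 1 the Ttk difference was 0.63, and without bitransgenic replicate 2 it was 2.58 (adjusted p = 0.0425).

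Both genes that promote anaphase lay higher on the bitransgenic arrays on their brightest probe sets. On the other kept Cdc20 probe set wild type replicate 2 (1397) lay above bitransgenic replicate 1 (1350). Cdc20, the activator of the anaphase-promoting complex, read 2693 and 3814 in bitransgenic and 752 and 1993 in wild type skin (1.37 ± 0.47, adjusted p = 0.21). Ube2c, its ubiquitin-conjugating enzyme, read 1513 and 1879 in bitransgenic and 322 and 1456 in wild type skin (1.27 ± 0.64). In Ube2c wild type replicate 2 was within 0.055 of bitransgenic replicate 1, and the 2 wild type arrays differed by 2.12, the widest wild type gap among the 41 genes.

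Of the genes of the spindle, midzone and centromere, 3 overlapped between groups and 2 did not. Among all genes tested, 23.9% had both bitransgenic arrays above both wild type arrays. Kif20a, a kinesin of the midzone, read 433 and 558 in bitransgenic and 72.2 and 368 in wild type skin (1.46 ± 0.67), and Cenpa, the histone of the centromere, read 1268 and 1707 in bitransgenic and 410.4 and 1184 in wild type skin (1.06 ± 0.50), both without overlap. Kif11, the motor that pushes the poles apart, read 407 and 541 in bitransgenic and 113 and 451 in wild type skin (0.98 ± 0.61), Prc1, which bundles midzone microtubules, read 675 and 1215 in bitransgenic and 357 and 854 in wild type skin (0.69 ± 0.48), and Nusap1, a microtubule-binding protein, read 812 and 1589 in bitransgenic and 382 and 1178 in wild type skin (0.74 ± 0.57). Wild type replicate 2 lay above bitransgenic replicate 1 in these 3 genes. Of the chromosome genes, Top2a, which untangles DNA, read 2980.3 and 4027 in bitransgenic and 1058 and 3055 in wild type skin (0.94 ± 0.49) and overlapped. Mki67, the Ki-67 antigen used to count dividing cells, read 3191 and 3464 in bitransgenic and 1040.3 and 2716 in wild type skin (0.98 ± 0.44, adjusted p = 0.343), and did not overlap.

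**Figure D3:**
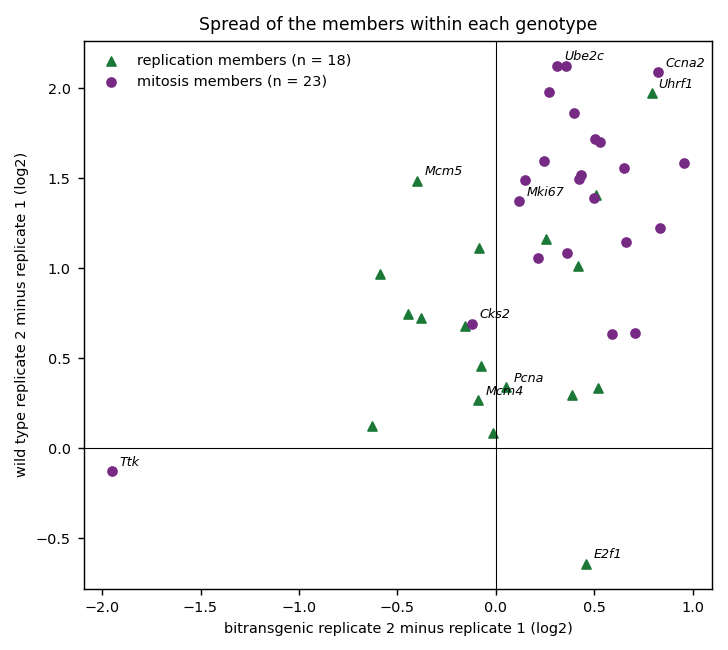
Difference between the 2 bitransgenic arrays (x axis) and between the 2 wild type arrays (y axis) for each gene, both as replicate 2 minus replicate 1 on the log2(signal + 16) scale; triangles are replication and circles mitosis genes. The bitransgenic arrays differed by less than 2-fold for all genes but Ttk, while the wild type arrays differed by more than 2-fold for 6 replication and 19 mitosis genes.

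The 2 wild type arrays lay further apart for mitosis than for replication genes. The median of bitransgenic replicate 2 minus replicate 1 was -0.045 for replication genes and 0.42 for mitosis genes. The median of wild type replicate 2 minus replicate 1 was 0.70 for replication genes and 1.49 for mitosis genes. Wild type replicate 2 was more than 2-fold above wild type replicate 1 for 6 of 18 replication and 19 of 23 mitosis genes, as against 4.67% of all genes. In 8 replication and 16 mitosis genes the 2 wild type arrays differed by more than the means of the genotypes did. No share over all genes stands beside these counts, so they are not read as particular to the list. Across the 41 genes the 2 differences had a Pearson correlation of 0.465, against 0.211 across all 13070 genes, each from the same 4 arrays and with genes that are not independent replicates.

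All kept probe sets of a gene had the same sign. Probe sets with a 4-array mean at or above the 40th percentile, a signal of 57.0, were kept. This left 73 of the 93 probe sets, and all 73 had a higher mean in bitransgenic skin. That filter mean includes the bitransgenic arrays, so a dim probe set could pass through them alone. Among dim probe sets the filter thus favours a higher bitransgenic mean. In the fit of 27022 probe sets 0 of the 73 were called, and 21 had an unadjusted p under 0.05, all of them higher. Limma called 0.207% of those 27022 higher, and 5.19% were higher at the unadjusted p. Of the 41 genes, 24 had several kept probe sets. Mcm3 had 4, with log2 differences from 0.98 to 1.83, the 2 of E2f1 gave 0.42 and 0.87, and the 3 of Foxm1 ran from 0.50 to 1.48. The highest Foxm1 value came from a dim probe set, with 108 and 182 in bitransgenic and 2.9 and 152 in wild type skin. Among kept probe sets of a gene the size of the difference varied and its sign did not. The lack of overlap was less general: both bitransgenic arrays lay above both wild type arrays on 45 of the 73, against 21.4% of kept probe sets, and 10 genes, among them Mcm3, E2f1 and Foxm1, had probe sets both with and without overlap. Of the 4 of Mcm3, 2 overlapped. Of the 20 probe sets below the filter, 5 had a lower mean in bitransgenic skin, 1 each of E2f1, Mcm5, Mcm6, Tyms and Top2a, all with mean signals under 30. The brightest probe sets of Ccne1, Mcm5, Rrm2, Aurkb and Cdc20 (suffix _x_at) and of Mcm3, Mcm7, Cdca8 and Prc1 (suffix _s_at) may also read related transcripts.

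Other genes of the same 2 phases, from lists drawn up with results of these arrays known, were also higher on average in bitransgenic skin. Of 54 other replication genes 50 were tested and 0 were called, and 17 were higher and 0 lower at an unadjusted p under 0.05, against 6.91% and 9.76% of all genes. Their median was 0.73, with 48 positive and 2 negative values, against 50.5% positive over all genes. The smallest p values were those of Cdt1, which loads the MCM ring (1366 and 1510 in bitransgenic and 482 and 669.9 in wild type skin, 1.31 ± 0.28, adjusted p = 0.0768), Cdca7, which recruits Hells to chromatin (959 and 1370.4 in bitransgenic and 351 and 508 in wild type skin, 1.41 ± 0.33, adjusted p = 0.0934), and Rfc3, a subunit of the clamp loader (769 and 886 in bitransgenic and 315 and 420.1 in wild type skin, 1.15 ± 0.29, adjusted p = 0.117). All 3 lay higher on both bitransgenic arrays. Of 57 other mitosis genes 52 were tested, 0 were called, 18 were higher and 0 lower at an unadjusted p under 0.05, and all 52 values were positive, with a median of 0.80. Ncaph, a condensin subunit, read 1182 and 1105 in bitransgenic and 436 and 539 in wild type skin (1.21 ± 0.27, adjusted p = 0.0833). Spc24, of the outer kinetochore, read 378 and 364 in bitransgenic and 92.5 and 147 in wild type skin (1.54 ± 0.35, adjusted p = 0.0924), and Cks1b, a paralogue of Cks2, read 6324 and 4958 in bitransgenic and 2403 and 3263 in wild type skin (0.996 ± 0.27, adjusted p = 0.128). Wild type replicate 1 was the lowest array for 38 of the 50 and 49 of the 52 genes, against 29.4% of all genes.

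Markers of other cell types in the skin also differed between the arrays, some in the order of the division genes and some not, and their part in the values above was not tested. Of all genes, 0.75% were called higher and 1.58% lower, which is the background of the counts that follow. For basal keratinocytes, the dividing layer of the epidermis, 10 of 11 markers were tested, with summed signals of 63728 and 95634 in bitransgenic and 89112 and 89171 in wild type skin. Of these Krt15 fell and the other 9 did not pass. Krt5 read 19571 and 34271 in bitransgenic and 23199 and 29838 in wild type skin, and Krt14 read 25491 and 36168 in bitransgenic and 22719 and 29412 in wild type skin. The groups overlapped for both keratins; the arrays of Krt14 had the order that 9 mitosis and 2 replication genes had, and those of Krt5 did not. Stress and hyperproliferation genes of keratinocytes (13 of 14 tested) summed to 108631 and 145456 in bitransgenic and 39717 and 55496 in wild type skin, and 6 of the 13 rose.

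The 3 lists of hair follicle genes had negative medians between genotypes, while within wild type skin their medians, like those of the division genes, were higher in replicate 2. Regulators of the hair matrix and precortex (14 of 16 tested, median -1.66, of which Bmp4 and Ptch1 fell) summed to 3972 and 6849 in bitransgenic and 12493 and 24799.6 in wild type skin. Hair shaft keratins (11 of 12 tested, median -4.73, 10 of which fell) summed to 1402 and 5264 in bitransgenic and 66067 and 112738 in wild type skin. Of the genes listed for the inner root sheath or companion layer, 13 of 13 were tested, with a median of -4.60, and Krt26, Krt72, Padi1 and Padi3 fell. Krt79 was the gene of that list with a higher mean in bitransgenic skin, at 23209.7 and 34422 in bitransgenic and 12408 and 11445 in wild type skin (1.24 ± 0.28, adjusted p = 0.0837), and it was named after its values were seen. No value here shows in which layer Krt79 was expressed. The other 12 genes of the list summed to 4874 and 26401 in bitransgenic and 143475 and 257082 in wild type skin. With Krt79 the sums were 28083 and 60822 in bitransgenic and 155884 and 268527 in wild type skin. Wild type replicate 2, with the higher division signal of its genotype, was also the higher in these follicle lists, by a median of 1.07 for the matrix regulators. In bitransgenic replicate 2, as against bitransgenic replicate 1, the shaft keratins had a median difference of 2.22, the mitosis genes of 0.42 and the replication genes of -0.045.

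Skeletal muscle markers had the opposite order within wild type skin. The 8 markers, all tested, 6 of which fell, summed to 18664 and 22191 in bitransgenic and 199376 and 79074 in wild type skin, so wild type replicate 1, the lowest array for division genes, held the most muscle signal. Fibroblast markers (7 of 8 tested, 0 called) summed to 62594 and 80109.8 in bitransgenic and 140610 and 119833 in wild type skin, and endothelial markers (8 of 8, 0 called) to 3305 and 4219.6 in bitransgenic and 4266 and 3206 in wild type skin. T cell markers (7 of 10 tested, 0 called) summed to 2199 and 2818 in bitransgenic and 2791 and 1466 in wild type skin, with Cd4 below the filter. The largest part of each sum was Ptprc, which is not restricted to T cells. Ptprc read 1320 and 1628 in bitransgenic and 1437 and 572 in wild type skin. Macrophage and dendritic cell markers (10 of 10, 0 called) summed to 26314 and 42062 in bitransgenic and 21268 and 13711 in wild type skin. The macrophage list had a median of 0.99, and, unlike the division genes, its wild type replicate 2 was below wild type replicate 1 for 8 of 10 genes. Limma gave 0 calls for the fibroblast, endothelial, T cell and macrophage lists. At an unadjusted p under 0.05, 5 fibroblast and 1 endothelial gene were lower, 6 macrophage genes higher, and 0 T cell genes passed. Of all genes, 6.91% were higher and 9.76% lower at that threshold. No tested marker of any list was listed at 0.

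**Figure D4:**
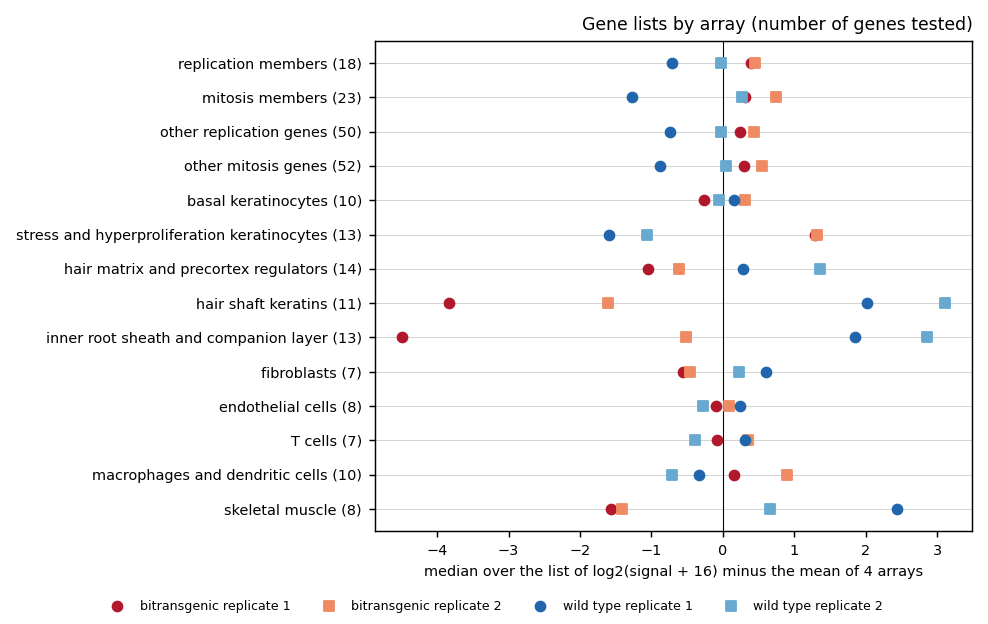
Median over each gene list of log2(signal + 16) minus the gene's mean over the 4 arrays, for the division genes and for markers of cell types in skin; the number of genes tested is in brackets. For both phases of division genes wild type replicate 1 is lowest, the basal keratinocyte list stays near 0 on all 4 arrays, and hair and muscle lists are high in both wild type arrays.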

How the data were processed

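Dorsal skin of 2 bitransgenic and 2 wild type mice was measured on Affymetrix Mouse 430 2.0 arrays, 1 array per biological replicate, grouped by the labels. The deposited values are linear signal intensities for 45101 probe sets, made by the authors with MAS5 in the affy package, per the submitters' processing notes (versions not given in the sources used here), and the 2% trimmed mean of each array was 500. Here the 64 control probe sets were left out, log2(signal + 16) was taken, and the 27022 of 45037 probe sets with a 4-array mean at or above the 40th percentile (log2 6.19) were kept. Probe sets were named from the platform annotation where it gave 1 symbol (34945, against 932 with several, which were not used), with symbols updated through RefSeq's gene table, and the probe set with the highest mean stood for each of 13070 genes. The test between genotypes was that of limma 3.58.1 under R 4.3.3 (a linear model with an eBayes prior that follows intensity, 2 residual and a median of 4.45 prior degrees of freedom), two-sided, with Benjamini-Hochberg adjustment over all genes. The number of arrays limits the precision: the smallest two-sided p that a permutation of 2 against 2 arrays can give is 0.333. No batch is given beyond the replicate numbers.

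All 41 measured genes of the list are named. Of the 2 lists of other replication and mitosis genes the 3 with the smallest p were named, and of each cell type list its summed signal and at most the 2 most abundant genes, with marker genes that passed added after their values were seen where there were 5 or fewer. The members and lists were chosen with earlier results of these data known. Promoters were those of genes with a searched element and the smallest p of their phase, 3 per phase. The alternatives were other pseudocounts, filters, scalings, probe set rules and priors, blocks by replicate number or by Y-linked signal, and leaving out each array.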

Additional observations from a re-analysis of the deposited data

How the results depend on the processing

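All results were recomputed under 15 alternatives. Of 610 recomputed differences of single genes, 578 kept both their sign and their side of the threshold, 28 passed it only under an alternative, and 4 changed sign, all without wild type replicate 1. With 1 array left out, these ran from -0.0167 to 1.95 (Uhrf1), -0.166 to 1.92 (Ccna2), -0.0196 to 1.57 (Bub1) and -0.0505 to 1.54 (Nusap1). Leaving out 1 array at a time, the number of the 41 genes called higher ran between 0 and 25, of their probe sets between 0 and 34, of other replication and mitosis genes between 0 and 31, and of all genes between 22 and 314 higher and 96 and 635 lower. The median difference ran from 0.35 to 1.64 over the 41 genes, from 0.49 to 1.11 for replication and from 0.25 to 1.80 for mitosis genes, lowest without wild type replicate 1 and highest without wild type replicate 2. With all arrays it ran from 0.92 (pseudocount 64) to 1.06 (equal array medians) over the 41 genes. Without a filter 52 genes were called higher and 132 lower, over more genes tested. With replicate number as a block, 207 genes (1.58%) were called higher and 438 lower, with 2 of the 41 genes (Bub1b, adjusted p = 0.0414, and Cdca8, adjusted p = 0.042), 1 of their probe sets and 3 of the other replication and mitosis genes higher; the deviations of same-numbered arrays correlated at 0.211 over all genes, and 2 pairs do not show that the numbers pair the animals. With arrays of like Y-linked signal as a block, 120 genes (0.918%) were called higher and 348 lower, with 0 of the 41 genes higher. The cause of these changes was not tested. The filter at the 60th percentile left 37 of the 41 genes in the test, and leaving out probe sets with the suffix _x_at or _s_at left 40. With 2 arrays a group, SEs of the 41 genes lay between 0.24 and 0.67, and that number of arrays, with the low signal of dim probe sets, limits what can be told from 0.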

Other observations

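Some genes of the replication machinery lay close to 0 or below it, and they are named here after their values were seen. Of the origin recognition complex, Orc1 read 162 and 137 in bitransgenic and 162 and 148 in wild type skin (log2 difference -0.05 ± 0.34, SE, n = 2 per group). The other subunits of that complex had log2 differences of 0.54 (Orc2), 0.059 (Orc3), 0.11 (Orc4), 0.039 (Orc5) and 0.16 (Orc6). Pola2, a subunit of the priming polymerase, read 209.8 and 242 in bitransgenic and 218 and 334 in wild type skin (-0.25 ± 0.35). Orc1 and Pola2 were the 2 of the 50 other replication genes with a lower mean in bitransgenic skin, and neither passed the test.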
